A study of Mus musculus with 9 samples.

Results

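Apoe, Apoc1, Apod, Clu, Pltp, Apol6 and Apobr encode secreted or cellular apolipoproteins and proteins that handle lipoproteins, and their transcripts were followed in whole mouse aorta. The 7 genes were taken by symbol, through the GENCODE mouse release 21 annotation, from a deposited table of 33293 gene identifiers, and all 7 were found and tested. Apoe_KO denotes 4 libraries from mice that lack Apoe, and WT denotes 5 libraries from C57BL/6J mice. All mice were males of 7 to 8 weeks on normal chow, so neither group had received a high-fat diet. The labels give neither the part of Apoe that the allele removes nor the strain background of the knockout. Separate animals are not stated for the libraries, so p-values measure only the spread between these samples.

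Apolipoproteins coat lipoprotein particles, keep their lipid in solution and direct it to receptors and enzymes. Apolipoprotein E is the ligand through which receptors clear remnant particles, and outside the liver it is made by macrophages and by cells of the vessel wall, where it accepts cholesterol leaving the cell. Apolipoprotein C-I, its small neighbour in the genome, slows remnant uptake and inhibits lipid transfer and lipase reactions. Mice without Apoe accumulate cholesterol-rich remnants in plasma and develop atherosclerosis with age.

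Levels are given as FPKM, which divides the reads of a gene by its length and by the depth of the library. The values resolved into whole reads, with WT 2 the shallowest library (17002945 reads) and WT 1 the deepest (19765398 reads). Smooth muscle markers of the arterial wall (Acta2, Myh11, Tagln, Cnn1, Smtn and Myocd) summed to 4760 to 6040 FPKM in Apoe_KO and 4650 to 5550 FPKM in WT. Among them Tagln was at only 6.06 to 10.2 FPKM in Apoe_KO and 7.42 to 9.37 FPKM in WT. Its exons overlap Pcsk7 and Gm48529 on the other strand, and the part of this in its level was not tested. Fat was in every library too, with 5 white adipocyte markers summing to 647 to 1190 FPKM in Apoe_KO and 950 to 1460 FPKM in WT. B and plasma cell markers set 1 library of each genotype apart, at 395 FPKM in Apoe_KO 4 and 460 FPKM in WT 2, against at most 39.5 FPKM elsewhere. T and NK cell markers set the same libraries apart, at 19.4 FPKM in Apoe_KO 4 and 26.3 FPKM in WT 2, against at most 4.24 FPKM elsewhere. In bulk tissue, fewer cells of a type and less RNA per cell cannot be told apart.

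Of the 7 genes, 3 were lower in Apoe_KO, 0 were higher and 4 did not pass the test, where 7.35% of all tested genes passed it (limma on log2(FPKM + 1), Benjamini-Hochberg adjusted p under 0.05 over 13383 tested genes). Apoe fell to 1.11% of its WT mean, Apoc1 to 12.8% and Apol6 to 64.5%. By direction 3.92% of all tested genes were called lower and 3.43% higher, 524 and 459 genes, or 269 lower and 630 higher when the libraries were centred on their medians. The genes were chosen with earlier results of these data known, so the share of 42.9% lower among them describes the list and supports nothing. Their median log2 fold change was -0.21, and that of all tested genes was -0.07.

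**Figure D1:**
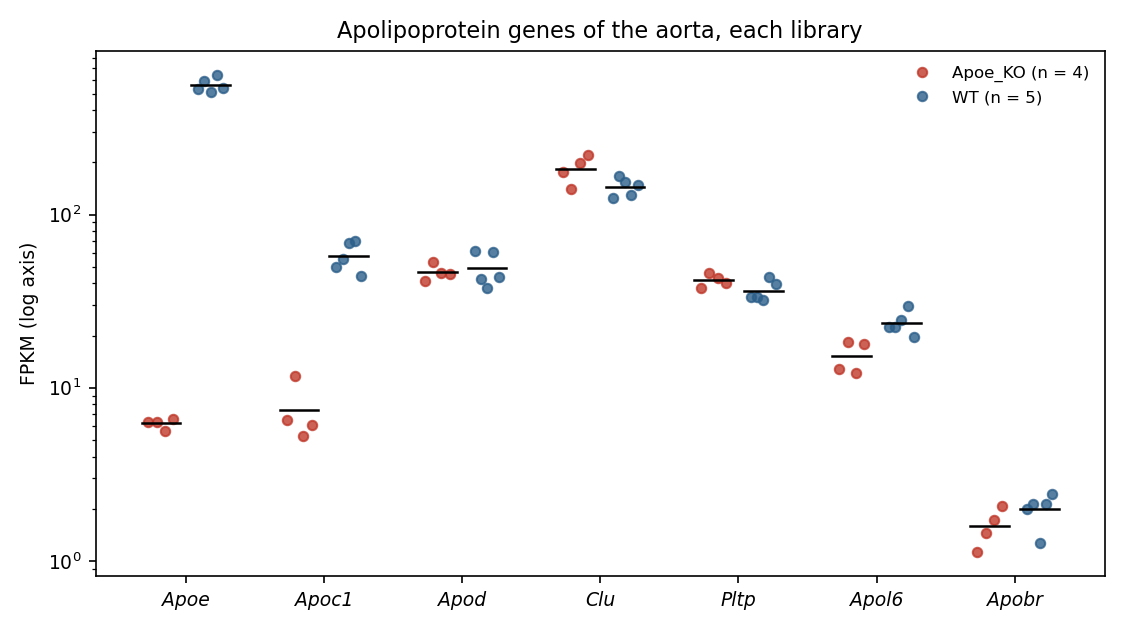
FPKM of the 7 genes on a log axis, with 1 point per library, Apoe_KO (n = 4) left of WT (n = 5), and a line at each group's mean. The groups are apart for Apoe, Apoc1 and Apol6, and they overlap for Apod, Clu, Pltp and Apobr.

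Apoe (ENSMUSG00000002985) lies on chromosome 7 from 19696109 to 19699188, on the minus strand of GRCm38, with 2138 exonic bases and no overlapping gene. It was at 6.35, 6.35, 5.64 and 6.55 FPKM in Apoe_KO 1 to 4, against 528, 592, 513, 643 and 536 FPKM in WT 1 to 5. Every library followed its label, and no other gene of the 7 had so even a level within Apoe_KO. Its coefficient of variation was 6.44% in Apoe_KO and 9.59% in WT, where the medians over all tested genes were 14% in Apoe_KO and 11.9% in WT. In WT aorta Apoe was the 31st most abundant gene of the table by mean FPKM, and in Apoe_KO it was the 6526th. The remaining signal was not near the counting limit, with 227 to 265 reads per Apoe_KO library, against 20665 to 26292 reads per WT library. The log2 fold change was -6.28 (SE 0.082, limma adjusted p = 5.63e-11).

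The sequence before the start of Apoe is shown because the deposited values carry a low but steady Apoe signal in the knockout libraries. It is the reference sequence of C57BL/6J and not of the knockout allele. RefSeq lists 3 start sites for Apoe, and the 250 bases are those before the outermost, which is also the GENCODE start, chr7:19699189-19699438 on the minus strand of GRCm38.p6, from RefSeq, 5′ to 3′.
Apoe upstream: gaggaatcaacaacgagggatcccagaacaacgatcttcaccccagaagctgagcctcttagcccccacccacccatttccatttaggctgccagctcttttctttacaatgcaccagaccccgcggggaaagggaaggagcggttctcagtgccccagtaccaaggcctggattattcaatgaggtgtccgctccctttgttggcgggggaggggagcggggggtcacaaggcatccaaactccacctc
The window has 57.2% G and C. It was searched on both strands for the TATA motif TATAAA, the GC box GGGCGG and the CCAAT box, and had none of these. Of the windows before the other 2 Apoe starts, which lie inside the gene, the one before 19698621 holds TATAAA on both strands and the other holds none of the motifs. Among 32851 RefSeq windows of the same length 12.4% hold TATAAA, 32.7% GGGCGG and 33.8% CCAAT. A match to such letters is a description and not a binding site. RefSeq upstream windows were found for 4 of the 7 genes.

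Apoc1 (ENSMUSG00000040564), the small inhibitory apolipoprotein gene, lies 3449 bases beyond the end of Apoe on the same strand, from 19689481 to 19692660 of chromosome 7. It was at 6.47, 11.7, 5.28 and 6.08 FPKM in Apoe_KO 1 to 4, against 50, 55.3, 68.7, 70.8 and 44.4 FPKM in WT 1 to 5. The highest Apoe_KO library was thus far below the lowest WT library. The means were 7.39 ± 2.94 FPKM in Apoe_KO and 57.8 ± 11.6 FPKM in WT (SD, n = 4 and 5), a log2 fold change of -2.84 (SE 0.21, limma adjusted p = 0.000374).

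Within Apoe_KO, Apoc1 varied more than the other 6 genes, with a coefficient of variation of 39.7%. Apoe_KO 2 held 162 reads and the other 3 knockout libraries 74 to 94 reads. The exact Poisson interval of Apoe_KO 2, 9.99 to 13.7 FPKM (95%, counting error only), did not reach the highest of the others, Apoe_KO 1, at 5.23 to 7.92 FPKM. Apoe showed no such step in Apoe_KO 2. The same library had the largest sum of white adipocyte markers in Apoe_KO, 1190 FPKM, against 647 to 938 FPKM in the other knockout libraries, but white fat was not alone in this. Brown adipocyte markers summed to 860 FPKM in Apoe_KO 2 and 334 to 453 FPKM in the other knockout libraries, and striated muscle markers to 18.8 FPKM in Apoe_KO 2 and 4.04 to 5.45 FPKM in the others. The part of these cells in the step was not tested. The ratio of Apoc1 to Apoe FPKM was 1.85 in Apoe_KO 2 and 0.928 to 1.02 in the other knockout libraries, against 0.0828 to 0.134 in WT.

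The genes around them were examined to see how far the decrease reached. Of 13 other genes within 100 kb of Apoe that had deposited values, 7 were tested. Of these 2 were lower and 0 higher, against 3.92% lower and 3.43% higher over all tested genes. Annotated genes without deposited values, such as Gm44805, which overlaps Apoc4, are not covered. With Apoc1, which was chosen with its result known, set aside, 1 was called. This was Bcam, which encodes a laminin receptor of the immunoglobulin family, 56943 bases before the start of Apoe. Bcam was at 120, 104, 120 and 94.6 FPKM in Apoe_KO 1 to 4, against 156, 142, 160, 145 and 156 FPKM in WT 1 to 5, so the groups did not overlap (log2 fold change -0.47, SE 0.087, limma adjusted p = 0.0137). Between Bcam and Apoe lie Tomm40, which encodes the pore of the outer mitochondrial membrane translocase, and Nectin2, a cell adhesion gene. Tomm40, only 2125 bases from Apoe, had a log2 fold change of -0.24 (SE 0.09, limma adjusted p = 0.128) and Nectin2 -0.04 (SE 0.12, limma adjusted p = 0.847). On the far side of Apoc1, Clptm1, Relb and Clasrp were at -0.06, 0.02 and -0.08 and were not called. Apoc4, the apolipoprotein gene after Apoc1, was barely present at 0 to 0.0644 FPKM in Apoe_KO and 0 to 0.144 FPKM in WT, and was not tested. The Bcam call was lost with median centring (-0.40, limma adjusted p = 0.0542) and with the mean of white adipocyte markers as a covariate (-0.67, limma adjusted p = 0.0551). Exons of Bcam, Tomm40 and Nectin2 overlap antisense genes, and no source used here says if strand entered the counting.

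**Figure D2:**
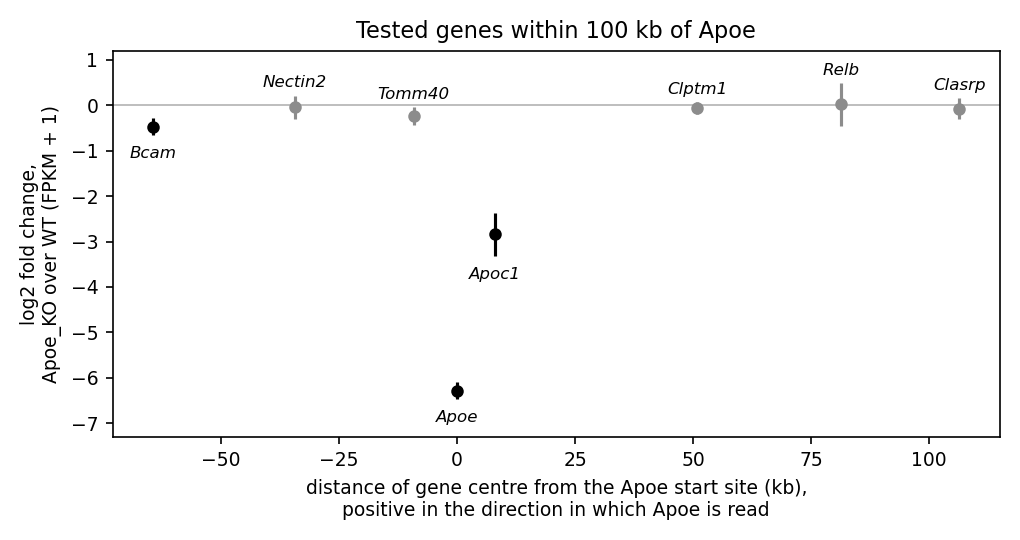
Log2 fold change of FPKM + 1 (Apoe_KO over WT, bars are 95% intervals) of Apoe and the 7 tested genes near it, against the distance of each gene's centre from the Apoe start in kb. Black marks called genes and grey the others. Apoe and Apoc1 stand far below their neighbours, Bcam at -0.47 was also called, and Tomm40 between them was not.

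Genes whose profile came closest to that of Apoe or Apoc1 were found by the root mean square difference of log2(FPKM + 1) over the 9 libraries. Each gene was taken relative to its own WT mean. The distance therefore follows mainly the size of the decrease in Apoe_KO, and the genes nearest to Apoe are other strongly reduced genes. It does not show a pattern shared library by library. Apoc1 was nearest to Apoe, but at a distance of 2.31 on the log2 scale, followed by Cyp2f2 at 2.79 and Mir6392 at 2.94. For scale, the log2 fold change of Apoe itself was -6.28. Nearest to Apoc1 were Cyp2f2, a cytochrome P450 gene elsewhere on chromosome 7, at 0.60, Mir6392 at 0.74 and Aplnr, the apelin receptor gene, at 0.91. Mir6392 is a microRNA gene of 108 exonic bases inside Pnpla3, on the same strand but with no shared exonic base. It had 1 to 13 reads per Apoe_KO library and 15 to 40 per WT library, and these cannot be told apart from reads of unspliced host RNA.

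Apol6 (ENSMUSG00000033576, chromosome 15, 77044729 to 77057106, plus strand) encodes a member of the apolipoprotein L family. It was at 12.8, 18.4, 12.1 and 17.8 FPKM in Apoe_KO 1 to 4, against 22.4, 22.3, 24.7, 29.6 and 19.5 FPKM in WT 1 to 5. The groups did not overlap, although the highest Apoe_KO library came within about 1 FPKM of the lowest WT library. The log2 fold change was -0.61 (SE 0.15, limma adjusted p = 0.0382). Over all tested genes 12.4% had groups that did not overlap. Split by direction, 7.48% of all tested genes had every Apoe_KO library below every WT library and 4.9% every Apoe_KO library above.

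The call for Apol6 did not hold under each library left out. The adjusted p was 0.067 without WT 1, 0.0692 without WT 2, 0.0675 without WT 3, 0.0794 without WT 4, 0.0946 without Apoe_KO 1 and 0.109 without Apoe_KO 3 (limma), with log2 fold changes of -0.70 to -0.51 over all 9 libraries left out in turn. Without WT 2 and Apoe_KO 4 together, 2 of the 7 genes were lower, Apoe and Apoc1, and Apol6 was at -0.70 (adjusted p = 0.0714). Of the 4498 exonic bases of Apol6, 64 overlap Mb, the myoglobin gene, on the other strand. Mb was at 0.206 to 7.69 FPKM in Apoe_KO and 0.385 to 10 FPKM in WT, and its part in the Apol6 values was not tested.

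The summed level of the white adipocyte markers Adipoq, Plin1, Lep, Retn and Cidec was 647, 1190, 720 and 938 FPKM in Apoe_KO 1 to 4, against 950, 1070, 1240, 1460 and 1040 FPKM in WT 1 to 5. All 5 were tested and 2 of them, Lep and Plin1, were lower in Apoe_KO, where 3.92% of all tested genes were called lower. Adipoq, Retn and Cidec, at log2 fold changes of -0.32, -0.83 and -0.35, were not called, and their groups overlapped. Apoe_KO 1 and 3 had the smallest sums and the smallest Apol6 values, and WT 4 had the largest of both. The orders did not match throughout. Apoe_KO 2, at 1190 FPKM, had a larger sum than WT 1, WT 2 and WT 5 but less Apol6 than each of them, and WT 1 had the smallest sum in WT but not the least Apol6. With the mean of these markers as a covariate beside genotype, an alternative chosen after the data were seen, the Apol6 log2 fold change was -0.10 (SE 0.11, limma adjusted p = 0.69). In the same fit Apoc1 was at -2.27 (SE 0.25, adjusted p = 0.0201) and Apoe at -6.16 (SE 0.12, adjusted p = 4.07e-08). The markers were themselves lower in 2 of 5 cases, so the covariate and genotype were not independent. The part of these cells in the Apol6 difference cannot be told apart from genotype here.

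**Figure D3:**
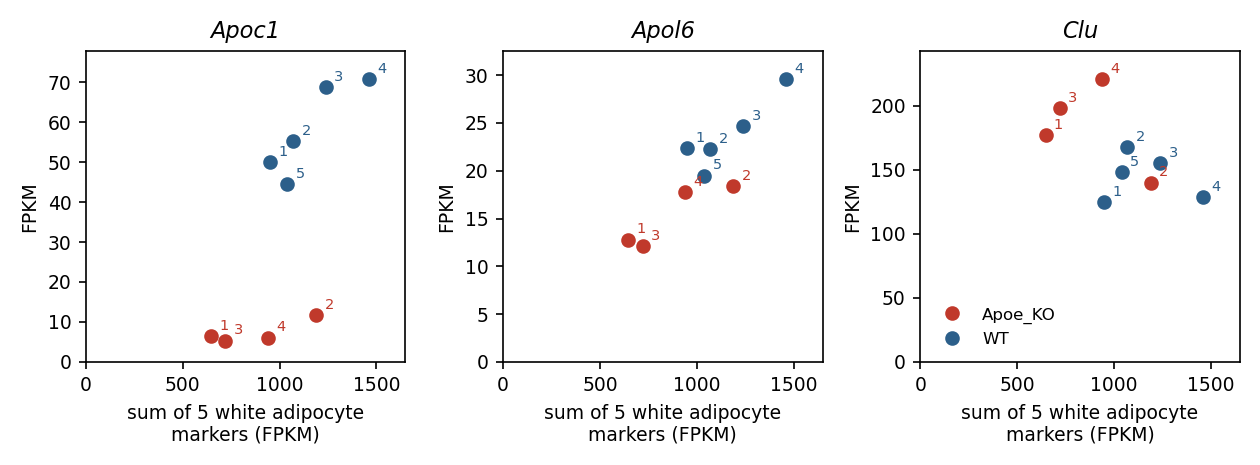
FPKM of Apoc1, Apol6 and Clu in each library against the summed FPKM of 5 white adipocyte markers, Apoe_KO in red and WT in blue, numbered by library. Apol6 is lowest in Apoe_KO 1 and 3, which have the smallest sums, and in Apoe_KO 2 it is below every WT library at a sum of 1190 FPKM. Apoc1 is highest within each genotype in the library with the largest sum, Apoe_KO 2 and WT 4.

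Clu (ENSMUSG00000022037, chromosome 14, 65968483 to 65981547, plus strand) encodes clusterin, also called apolipoprotein J, a secreted chaperone that rides on high-density lipoproteins and binds misfolded protein. It was the most abundant of the 7 genes in Apoe_KO, at 177, 140, 198 and 221 FPKM in libraries 1 to 4, and second to Apoe in WT, at 125, 168, 155, 129 and 148 FPKM in libraries 1 to 5. In 3 of 4 Apoe_KO libraries it was above every WT library, and Apoe_KO 2 lay among the WT values. The log2 fold change of 0.33 (SE 0.14, 95% interval 0.02 to 0.64) was not called, with a limma adjusted p of 0.177. Without Apoe_KO 2 it was 0.45 (limma adjusted p = 0.0458).

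Pltp (ENSMUSG00000017754, chromosome 2, 164839518 to 164857711, minus strand) encodes the phospholipid transfer protein, which moves phospholipid between lipoproteins and reshapes high-density lipoprotein. It was at 37.5, 45.9, 43.2 and 40.0 FPKM in Apoe_KO 1 to 4, against 33.5, 33.2, 31.9, 43.5 and 39.7 FPKM in WT 1 to 5. The ranges overlapped, and 1 of 4 Apoe_KO libraries was above every WT library. The log2 fold change was 0.20 (SE 0.10, 95% interval -0.03 to 0.43, limma adjusted p = 0.273). Its exons share 495 bases, 19.3% of its exonic length, with Ctsa on the other strand, the gene of a lysosomal carboxypeptidase. Ctsa itself was at 28.7 to 31.4 FPKM in Apoe_KO and 27.4 to 31.9 FPKM in WT.

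Apoe and Pltp are both known targets of the liver X receptors, the sterol sensors of the nucleus, so the Pltp window is shown too. Apoe is the gene that these mice lack, and no receptor element was searched for. The part of upstream sequence in either level was not tested. The Pltp window is chr2:164857709-164857958 on the minus strand of GRCm38.p6, from RefSeq, with a match to CCAAT and a match to GGGCGG, both on the opposite strand, in capitals.
Pltp upstream: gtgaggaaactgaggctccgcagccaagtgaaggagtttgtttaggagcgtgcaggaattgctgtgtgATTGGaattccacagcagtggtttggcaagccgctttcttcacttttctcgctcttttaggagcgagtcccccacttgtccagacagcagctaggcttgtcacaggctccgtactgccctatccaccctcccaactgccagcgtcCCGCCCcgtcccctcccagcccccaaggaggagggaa
It has 57.6% G and C, close to the 57.2% of the Apoe window above.

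Apod (ENSMUSG00000022548, chromosome 16, 31296192 to 31314808, minus strand) encodes a lipocalin that binds arachidonic acid and progesterone and is made by fibroblasts and Schwann cells. It was at 41.1, 53.1, 45.9 and 45.1 FPKM in Apoe_KO 1 to 4, against 61.4, 42.7, 37.6, 60.9 and 43.3 FPKM in WT 1 to 5. All Apoe_KO values lay within the WT range. The log2 fold change was -0.06 (SE 0.15, 95% interval -0.40 to 0.28, limma adjusted p = 0.833), so that these libraries leave room for a change of either sign.

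Apobr (ENSMUSG00000042759, chromosome 7, 126584942 to 126589112, plus strand) encodes a receptor for apolipoprotein B48 through which macrophages take up triglyceride-rich particles. It was the rarest of the 7 at 1.12, 1.45, 1.71 and 2.06 FPKM in Apoe_KO 1 to 4, against 1.99, 2.12, 1.26, 2.14 and 2.42 FPKM in WT 1 to 5. The ranges overlapped, and 1 Apoe_KO library was below every WT library. With 83 to 143 reads per Apoe_KO library and 90 to 170 per WT library, the log2 fold change of -0.21 (SE 0.14, 95% interval -0.53 to 0.12) was not called (limma adjusted p = 0.414). Macrophage markers (9 tested, 2 higher, 0 lower) summed to 265 to 384 FPKM in Apoe_KO and 188 to 252 FPKM in WT, and their sum was higher in every Apoe_KO library than in any WT library. The called ones were Cd14 and Lyve1, where 3.43% of all tested genes were called higher. Cd68, Adgre1, Csf1r, Mrc1, C1qa, C1qb and Fcgr1 were not called, at log2 fold changes of 0.04 to 0.47. Of the 9, Lyve1 and C1qb had every Apoe_KO library above every WT library, as had 4.9% of all tested genes. The most abundant markers, C1qa and C1qb, weigh most in the sum. The exons of Apobr share 442 bases with Cln3 and 103 bases with Il27, both on the other strand.

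Two-sided exact permutation tests, with 126 possible assignments of the labels, gave p = 0.0159, the smallest they can give, for Apoe, Apoc1 and Apol6. That value restates that the groups did not overlap, as in 12.4% of all tested genes. The genes were chosen with earlier results known, so it adds no support to their calls. The exact permutation p was 0.0952 for Clu, 0.127 for Pltp, 0.191 for Apobr and 0.762 for Apod.

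The order of the levels differed between the genotypes. In Apoe_KO it ran Clu, Apod, Pltp, Apol6, Apoc1, Apoe and Apobr, and the ranges of Apod and Pltp and of Apoc1 and Apoe overlapped. In WT it ran Apoe, Clu, Apoc1, Apod, Pltp, Apol6 and Apobr, where neighbours were apart over the libraries except for Apoc1 with Apod and Apod with Pltp. Summed, the 7 genes came to 303 ± 28.6 FPKM in Apoe_KO and 877 ± 68.4 FPKM in WT (SD, n = 4 and 5). Apoe alone made up 2.07% of that sum in Apoe_KO and 64.1% in WT, and Clu 60.5% in Apoe_KO and 16.6% in WT. Without Apoe the sums were 296 ± 28.4 FPKM in Apoe_KO and 314 ± 17.8 FPKM in WT, with ranges that overlapped.

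Beyond the 7, most apolipoprotein genes were scarcely transcribed in the aorta. Of 26 further names on the list, 25 had a row, and 3 of these passed the filter of at least 1 FPKM in at least 4 libraries. Apoo and Apool, whose proteins belong to the cristae-organizing complex of mitochondria, were at 16.8 ± 5.52 and 4.85 ± 0.927 FPKM in Apoe_KO, against 18.5 ± 2.43 and 5.43 ± 0.53 FPKM in WT (SD, n = 4 and 5), and were not called. Apol10b, another apolipoprotein L gene on chromosome 15, from 77583819 to 77596125 on the minus strand, was lower. It was at 0.419, 0.857, 0.799 and 0.656 FPKM in Apoe_KO 1 to 4, against 1.59, 1.80, 1.76, 2.45 and 1.57 FPKM in WT 1 to 5, with 19 to 37 reads per Apoe_KO library and 68 to 109 per WT library. The groups did not overlap (log2 fold change -0.75, SE 0.12, limma adjusted p = 0.00832). It passed the filter only through WT, where all libraries were above 1 FPKM, while every Apoe_KO library was below 1 FPKM. Passing in this way favours a lower call, so the call supports nothing about the list. Over all tested genes 3.92% were called lower, and with 3 tested genes 1 call does not set the list apart. With the adipocyte marker mean as a covariate Apol10b was at -0.47 (limma adjusted p = 0.228).

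The upstream window of Apol10b is shown because it was the 1 called gene of the further apolipoprotein list. It spans chr15:77596126-77596375 on the minus strand of GRCm38.p6, has 46.4% G and C, and holds 1 match to CCAAT, in capitals.
Apol10b upstream: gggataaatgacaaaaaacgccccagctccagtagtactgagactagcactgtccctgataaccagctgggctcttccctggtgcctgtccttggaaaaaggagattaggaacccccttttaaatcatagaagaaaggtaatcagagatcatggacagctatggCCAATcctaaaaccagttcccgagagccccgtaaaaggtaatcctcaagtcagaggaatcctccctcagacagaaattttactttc
Like the outermost Apoe window, it had no match to TATAAA or GGGCGG.

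**Figure D4:**
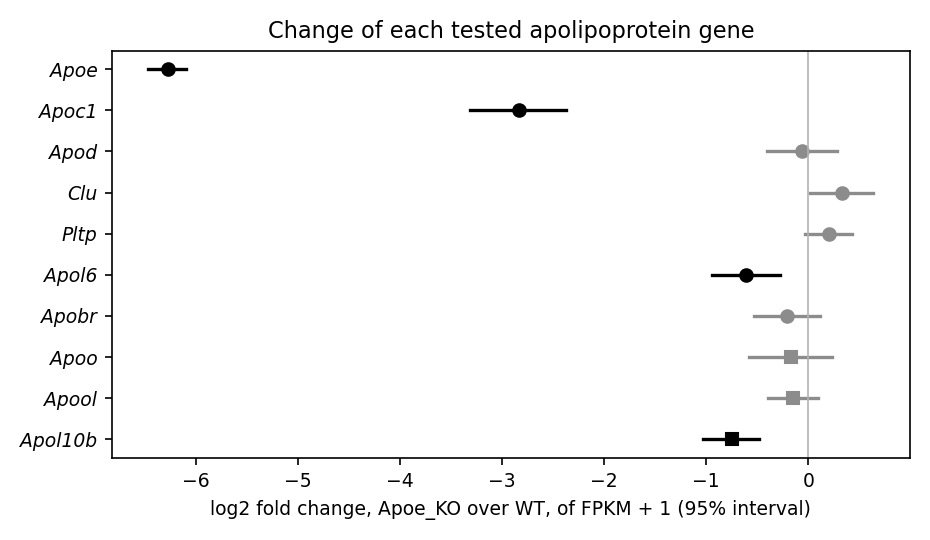
Log2 fold change of FPKM + 1 (Apoe_KO over WT) with 95% intervals, for the 7 genes (circles) and the 3 other tested apolipoprotein genes (squares), called genes in black. Apoe, Apoc1, Apol6 and Apol10b lie below 0, and the intervals of Apod, Pltp, Apobr, Apoo and Apool include 0, while that of Clu lies just above 0.

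The 22 apolipoprotein genes under the filter reached at most 4.34 FPKM in any library, and 2 of them had no more than 3 reads in every library. The apolipoproteins that liver and gut secrete were among them. Apoa1 was at 0 to 0.264 FPKM in Apoe_KO and 0.0423 to 1.63 FPKM in WT, and Apob at 0 to 0.0441 FPKM in Apoe_KO and 0.015 to 0.282 FPKM in WT. Both WT maxima came from WT 3. Hepatocyte markers summed to 0.846 to 2.27 FPKM in Apoe_KO, and in WT to 16.3 FPKM in WT 3 and 2.08 to 4.88 FPKM in the other libraries. Apol7c and Apol7e were high in the 2 libraries rich in B, T and NK cell transcripts, and their cell of origin was not tested. They were at 1.30 and 0.903 FPKM in Apoe_KO 4 and 4.34 and 1.27 FPKM in WT 2. Elsewhere they were at most 0.0249 and 0.088 FPKM in Apoe_KO and 0.254 and 0.152 FPKM in WT.

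**Figure D5:**
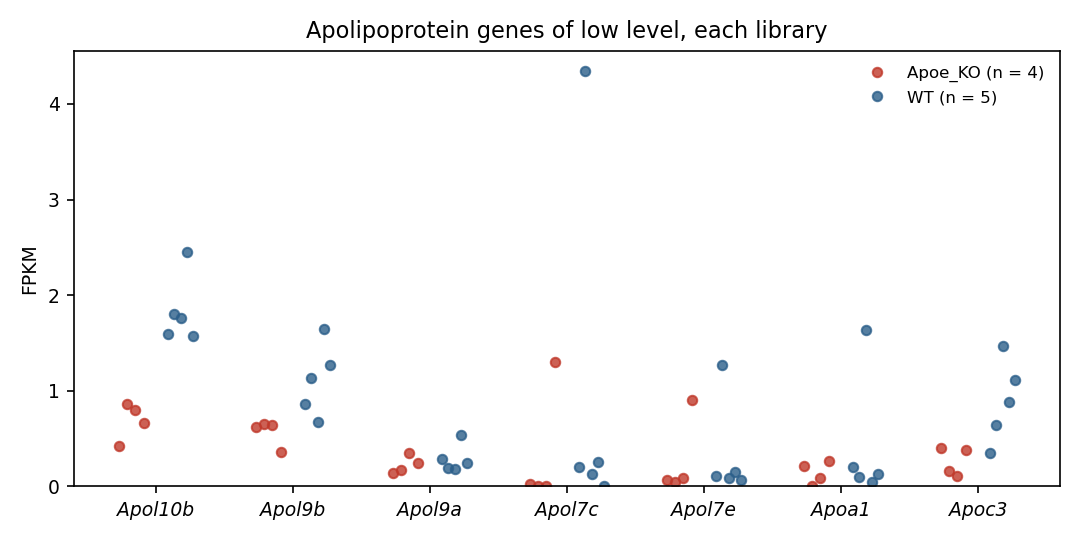
FPKM of 7 apolipoprotein genes of low level in each library, on a linear axis, Apoe_KO (n = 4) left of WT (n = 5). Apol10b is lower in every Apoe_KO library, and single libraries carry the high values of Apol7c, Apol7e and Apoa1.

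The genes that reshape lipoproteins and regulate Apoe were described from 2 lists. Among genes of lipoprotein remodelling and lipid export, 1 of 13 was lower and 0 higher, and of 9 nuclear receptors and factors known to act on Apoe 1 was lower and 0 higher. Over all tested genes 3.92% were lower, and with lists this short 1 called gene does not set either list apart. The first was Pon1, which encodes paraoxonase 1, an antioxidant esterase on high-density lipoprotein, at 16.6 to 20.2 FPKM in Apoe_KO and 30.4 to 50.7 FPKM in WT (log2 fold change -0.99, SE 0.14, limma adjusted p = 0.00329). The other was Srebf1, a regulator of lipid synthesis, at 18.6 to 26.8 FPKM in Apoe_KO and 31.7 to 42.8 FPKM in WT (log2 fold change -0.60, SE 0.13, limma adjusted p = 0.0217). Its call was lost without WT 4 (adjusted p = 0.0561), without Apoe_KO 3 (0.0512) and without WT 2 and Apoe_KO 4 together (0.0653) and with no filter (0.058, limma). The medians of these 2 lists were -0.04 and -0.08 on the log2 scale, and that of all tested genes was -0.07. With the adipocyte marker mean as a covariate Pon1 was at -0.66 and Srebf1 at -0.31, and neither was called (limma adjusted p = 0.143 and 0.381). That covariate left 11 genes lower and 18 higher over the whole table.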

How the data were processed

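Whole-aorta RNA was measured in 4 Apoe_KO and 5 WT libraries. Per the labels' protocols ribosomal RNA was depleted, although the labels' molecule field says polyA RNA. Per the submitters' processing notes the build was GRCm38 and limma was used. The sources used here give no aligner, counting program or annotation.

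The FPKM values were made by the authors and deposited as 1 table with no unit in its header. The unit was inferred: multiplied by exonic length (GENCODE mouse release 21), the values are whole multiples of 1 step per library. Within 0.1 read this held for 94.9% to 95.4% of values, where chance gives 20%. Of 33293 identifiers 33240 were in the annotation.

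The test was limma 3.58.1 (R 4.3.3, trend and robust options) with genotype as the only term, on log2(FPKM + 1) of the 13383 genes with 1 FPKM or more in 4 or more libraries. Benjamini-Hochberg adjustment covered all of them, at a threshold of 0.05. Fold changes of rare genes are understated on this scale. The script was tested on simulated data. Exact permutation tests used all 126 assignments of the labels. The design allowed for counts or normalized values, and the unit set the test. No pairing of libraries by replicate number was seen, but 4 such pairs are too few to exclude it. Alternatives changed the pseudocount, filter, scaling, library weights, replicate block and libraries used, and, chosen after seeing the data, added a white adipocyte covariate.

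The 7 genes and the lists were chosen with earlier results of these data known. Named genes were the 7, tested genes of the apolipoprotein list, tested genes within 100 kb of Apoe, the called genes of the other lists and the 3 nearest profiles of Apoe and Apoc1. Apoc2 was not matched to a row and is not analysed here. The results of 2 further lists, of receptors and of glial markers, are not reported here. Python 3.11.15, numpy 2.4.6, pandas 2.3.3, scipy 1.17.1 and matplotlib 3.10.9 were used for tables and plots.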

Additional observations from a re-analysis of the deposited data

Results flagged for a closer look

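Among the named genes, 3 of 44 groups of libraries held a value far from the rest of its group, where chance gives about 1 in 20. Apol10b was at 2.45 FPKM in WT 4, against 1.57 to 1.80 FPKM in the other WT libraries. Srebf1 was at 18.6 FPKM in Apoe_KO 1, against 25.9 to 26.8 FPKM in the other Apoe_KO libraries. Relb, which encodes an NF-kappaB subunit of lymphoid cells, was at 5.87 FPKM in WT 2, against 2.63 to 3.26 FPKM in the other WT libraries. WT 2 was the WT library with the highest B cell marker sum and the highest T and NK cell marker sum.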

How the results depend on the processing

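Apoe and Apoc1 kept their direction and their call under each of the 19 alternatives, over -6.50 to -6.16 and -3.06 to -2.27 on the log2 scale. Pltp and Apobr kept their direction and were not called under the 19 and the 18 alternatives that gave a value (0.13 to 0.34 and -0.33 to -0.08). The filter of 10 FPKM gave none for Apobr. Clu was called only without Apoe_KO 2, and without single libraries ranged over 0.24 to 0.45. Apod changed sign with median centring (0.01), with the adipocyte covariate (0.14) and without WT 1 or WT 4 (0.02 each), within -0.15 to 0.02 over single libraries. Apol6 lost its call with no filter (-0.61, limma adjusted p = 0.101), median centring (-0.54, 0.0668), the replicate block (-0.67, 0.0769), the adipocyte covariate (-0.10, 0.69) and without WT 2 and Apoe_KO 4 (-0.70, 0.0714). It ranged over -0.70 to -0.51 without single libraries. With no filter 30432 genes were tested. The cause of these losses was not tested.

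Counts of genes called higher were 247 with no filter, 121 with the replicate block, 702 with library weights, 203 without WT 2 and Apoe_KO 4, 18 with the adipocyte covariate and 205 to 576 without single libraries. Counts lower were 198 with no filter, 220 with a filter of 10 FPKM, 269 with median centring, 240 with quantile normalization, 62 with the replicate block, 1055 with library weights, 174 without WT 2 and Apoe_KO 4, 11 with the adipocyte covariate and 178 to 683 without single libraries. Same-numbered libraries had correlations of 0.259, -0.267, -0.129 and -0.218 in their deviations from the group means. Of 4 Apoe_KO libraries 1 matched its own number best. No pairing by number was seen, but so few pairs cannot exclude it. The covariate, and the alternatives for the list genes, were added after the data were seen. Apol10b lost its call with the replicate block and the covariate (adjusted p = 0.0638 and 0.228) and kept it under the other 16. With the replicate block Bcam (-0.46, 0.0755) and Srebf1 (-0.62, 0.0745) were not called either.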

Other observations

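Apol9b was under the filter and was chosen after its values were seen. Every Apoe_KO library was below every WT library, as in 7.48% of all tested genes. Apol9b was at 0.619, 0.651, 0.641 and 0.359 FPKM in Apoe_KO 1 to 4, against 0.861, 1.13, 0.67, 1.64 and 1.27 FPKM in WT 1 to 5. The groups were barely apart, at 0.651 FPKM in Apoe_KO 2 and 0.67 FPKM in WT 3. Apol9b had 12 to 22 reads per Apoe_KO library and 23 to 57 per WT library. With no filter it had a log2 fold change of -0.42 and was not called (limma adjusted p = 0.219). Its close relative Apol9a overlapped between groups, at 0.138 to 0.348 FPKM in Apoe_KO and 0.178 to 0.536 FPKM in WT, and reads of the pair may have been split between them.

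Apold1, also chosen after its values were seen, is named for an apolipoprotein L domain and is a gene of vascular endothelium that responds early to stimuli. It was at 6.00, 18.7, 18.3 and 29.5 FPKM in Apoe_KO 1 to 4, against 3.08, 4.02, 9.36, 6.23 and 11.7 FPKM in WT 1 to 5. In 3 of 4 Apoe_KO libraries it was above every WT library, and the log2 fold change of 1.23 (SE 0.46) was not called (limma adjusted p = 0.135). It varied widely within both groups, with coefficients of variation of 53.0% in Apoe_KO and 52.5% in WT.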
